A study of Danio rerio with 15 samples.

Results

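Transcripts of 10 cytoplasmic assembly factors of axonemal dynein were examined in zebrafish pronephric ducts with and without actl6a: dnaaf1, dnaaf2, dnaaf3, dnaaf4, dnaaf5, dnaaf11, zmynd10, spag1a, spag1b and ccdc103. They were chosen as a functional group, and rows of the count tables were matched to them through RefSeq accessions. Of the 10 genes, 7 had a row among 33298 accessions. For dnaaf3, dnaaf5 and ccdc103 no row was matched, and they were not analysed here. Where a gene had more than 1 accession, the one with the highest summed count was used, which applied to dnaaf11.

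Axonemal dyneins are the motors that make motile cilia beat, and they sit on the cilium's microtubules as outer and inner arms. Their subunits are folded and joined in the cytoplasm, with the help of HSP90 and of the dynein arm assembly factors, before they enter the cilium. In the zebrafish pronephros beating cilia drive fluid along the duct, and loss of several of these factors in zebrafish is known for curved bodies and kidney cysts. In people, variants in the same genes cause primary ciliary dyskinesia.

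The libraries came from larvae at 72 h post fertilization (hpf), 7 from siblings and 8 from actl6a mutants. Both groups carried a transgene in which the Na,K-ATPase alpha1A4 (atp1a1a.4) promoter drives GFP in pronephric epithelium, and both were raised from incrosses of a line mutated with CRISPR/Cas9. The labels give the mutants as actl6a knockout and the siblings as WT, with no word on heterozygotes. Per the labels' protocols, 15 embryos per group were digested with collagenase and about 10 fluorescent duct fragments were picked by eye, so a library pools fragments. actl6a encodes an actin-related subunit of SWI/SNF chromatin remodelling complexes. The labels name the libraries as replicates without saying that they came from separate clutches, so p-values measure the spread between these libraries.

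Total counts per library ranged from 1583052 to 4013852, so that before TMM scaling 1 count was worth 0.249 to 0.632 CPM (counts scaled to a common library total). Levels of single genes below are CPM with TMM scaling factors, and fold changes are edgeR's, mutant over sibling. Sums over a list are CPM without TMM scaling. All sibling libraries carried one sequencing index and all mutant libraries another, and the effects of genotype and of index cannot be told apart. Levels of actl6a averaged 84.2 ± 10.9 CPM (SD, n = 7) among siblings and 24.9 ± 11.5 CPM (SD, n = 8) among mutants, with 8 of 8 mutant libraries below every sibling (log2 fold change -1.70, SE 0.24, edgeR adjusted p = 0.000248). Of 18 listed pronephric markers 13 had a row, among them the transgene's source gene atp1a1a.4 and the cadherin gene cdh17, at sibling means of 1550 and 899 CPM. Their summed share was 4055 to 6058 CPM in siblings and 5180 to 6421 CPM in mutant replicates 1, 2, 3 and 7, but 2292 to 2861 CPM in mutant replicates 4, 5, 6 and 8. gata3 had 0 counts in every sibling, and lhx1a averaged 1.26 CPM there. In the same 4 mutants erythrocyte markers summed to 2010 to 4879 CPM and endothelial markers to 1090 to 2496 CPM. The remaining mutants had no more than 611 and 434 CPM. Sibling replicate 1 resembled the first set, at 2421 and 1656 CPM, against at most 507 and 173 CPM in the other siblings. Fewer ciliated cells and less RNA per cell cannot be told apart in these bulk libraries.

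All 7 assembly factors passed the filter on low counts, and 3 of them, spag1b, dnaaf4 and dnaaf1, were lower in mutants at an adjusted p under 0.05. Over all 12914 accessions tested, 5.53% were called lower and 13.6% higher. No assembly factor was called higher, and all 7 had a log2 fold change below 0 in edgeR and in DESeq2, beside 46.9% of all accessions in edgeR, so none was higher at an unadjusted p either. At an unadjusted p under 0.05, 4 were lower, zmynd10 being the addition, beside 12.1% of all accessions. The median log2 fold change of the 7 was -0.93, from -1.37 to -0.09, against 0.04 over all accessions tested. In 19.3% of all accessions tested, 4 or more mutant libraries lay below every sibling, the background for the library counts given below. Without mutant replicates 4, 5, 6 and 8, edgeR called 0 of the 7 factors, beside 1.03% of all accessions called lower, and the median was -0.22. In that smaller fit dnaaf4 and spag1b were lower at an unadjusted p under 0.05, beside 9.75% of all accessions, and dnaaf11 was higher, beside 11.0%. With sibling replicate 1 left out as well, dnaaf4 was called (-0.64, SE 0.15, edgeR adjusted p = 0.0320), beside 1.11% of all accessions called lower.

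**Figure D1:**
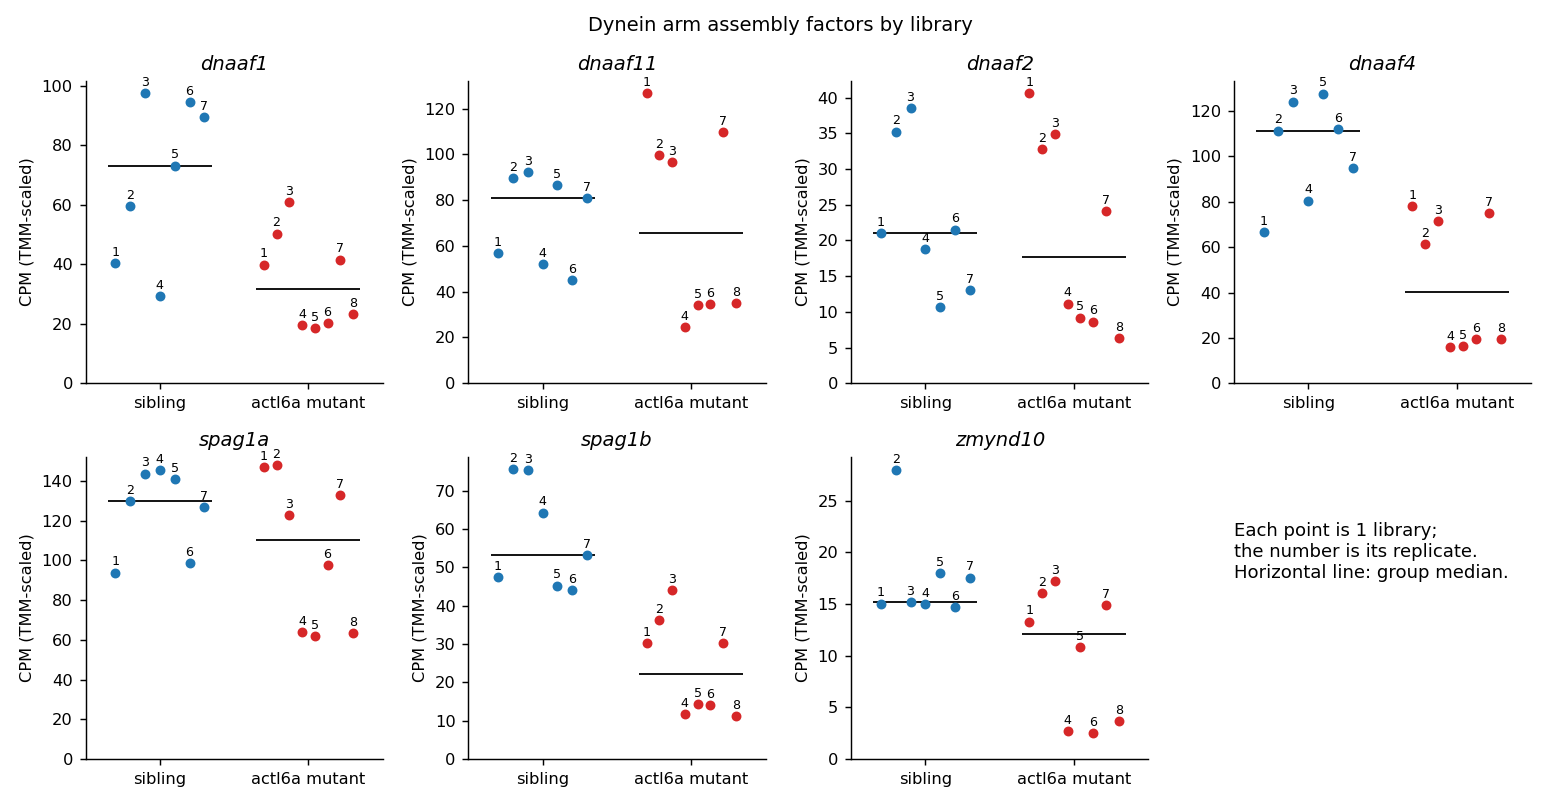
Level of each assembly factor in CPM (TMM-scaled, linear axis from 0) in 7 sibling and 8 mutant libraries. Numbers are replicates and lines are group medians. Mutant replicates 4, 5, 6 and 8 are the 4 lowest mutant libraries in all 7 panels, and for dnaaf11 the other mutants lie above every sibling.

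The first set of factors are co-chaperone-type proteins that bind HSP90 or HSP70 through tetratricopeptide (TPR) or PIH and CS domains. spag1b encodes one of a pair of zebrafish SPAG1 proteins, TPR proteins whose human counterpart is needed for both outer and inner arms. Its levels (NM_001077321.1) ran from 44.0 to 75.7 CPM in siblings, with a median of 53.2 CPM. In mutants they ran from 11.2 to 44.0 CPM, with a median of 22.3 CPM. Mutant replicates 4, 5, 6 and 8 lay between 11.2 and 14.3 CPM, replicates 1, 2 and 7 between 30.3 and 36.3 CPM, and replicate 3 just under the lowest sibling. The groups therefore did not overlap, which over all accessions tested held for 0.736% in this direction and for 1.57% in the other. The margin, 43.98 CPM in mutant replicate 3 against 44.01 CPM in sibling replicate 6, was smaller than 1 count. The log2 fold change was -1.37 (SE 0.30, edgeR adjusted p = 0.00526), from a mean of 57.9 ± 13.8 CPM (SD, n = 7) to 24.0 ± 12.8 CPM (SD, n = 8).

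spag1a (NM_001089406.2), the paralog, ran from 93.8 to 146 CPM in siblings, with a median of 130.1 CPM. In mutants it ran from 61.9 to 148 CPM, with a median of 110.2 CPM. Mutant replicates 4, 5 and 8 were below every sibling, at 61.9 to 63.8 CPM, while replicates 1 and 2 were above every sibling. Its log2 fold change was -0.29 (SE 0.21, edgeR adjusted p = 0.358), with a 95% interval from -0.71 to 0.13. In raw counts it had 202 to 349 in siblings and 199 to 271 in mutants.

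Whether the paralogs differed in their change was tested on their ratio within each library, which needs no scaling. In siblings spag1b had 0.322 to 0.583 counts per count of spag1a, with a median of 0.447, and in mutants 0.145 to 0.359, with a median of 0.218. Of the mutants, 7 of 8 lay below every sibling, the exception being replicate 3 at 0.359. The mean log2 ratio was -1.13 ± 0.28 (SD, n = 7) among siblings and -2.21 ± 0.39 (SD, n = 8) among mutants. The difference of -1.08 (SE 0.17) passed an exact two-sided permutation test over 6435 splits (p = 0.000622, n = 7 and 8, the smallest possible being 0.000311). The test was chosen with earlier results of these data known, and ratios of other gene pairs were not computed. How often such a ratio separates the groups is therefore not known. Without mutant replicates 4, 5, 6 and 8 the difference was -0.84 (exact permutation p = 0.0121). The ratio of these 4 libraries, 0.145 to 0.233, overlapped that of the other mutants, at 0.208 to 0.359. Reads that match both paralogs could be split by the authors' counting, which is not described in the sources used here.

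**Figure D2:**
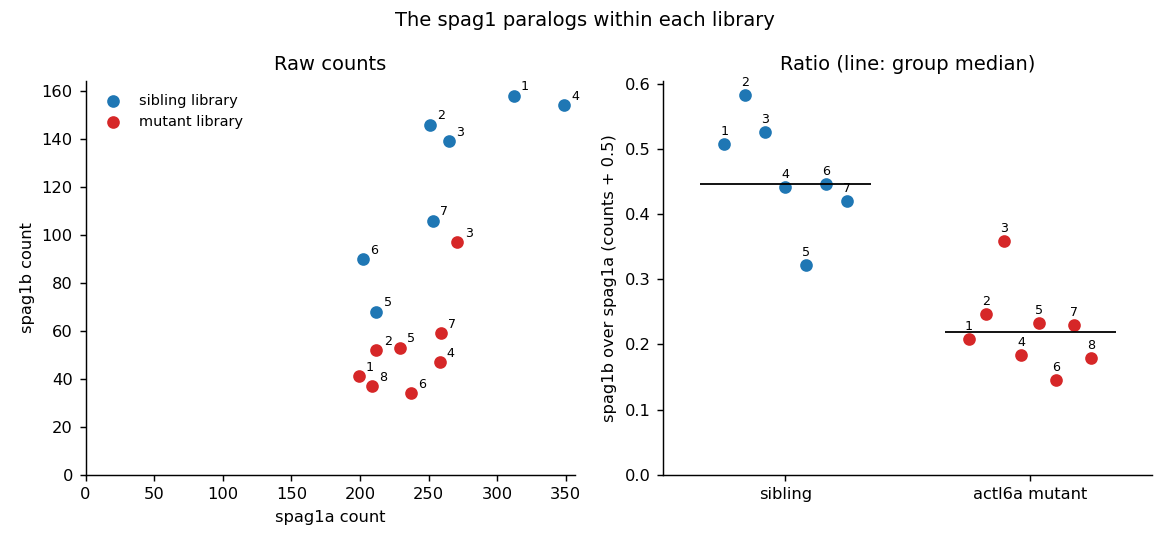
Left, spag1b against spag1a in raw counts per library; right, their ratio by group with the median as a line. spag1a has 202 to 349 counts in siblings and 199 to 271 in mutants, not scaled for library totals. The ratio is below every sibling in 7 of 8 mutant libraries.

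dnaaf4 (NM_205688.1), also known as dyx1c1, encodes a TPR and CS domain protein that links chaperones to dynein assembly. Sibling libraries had 66.7 to 128 CPM, with a median of 111.4 CPM, and mutants 15.8 to 78.3 CPM, with a median of 40.4 CPM. Mutant replicates 4, 5, 6 and 8 had 15.8, 16.2, 19.3 and 19.4 CPM, the lowest values of the gene. Mutant replicate 2, at 61.4 CPM, was also below every sibling, and replicates 1, 3 and 7, at 71.6 to 78.3 CPM, overlapped only sibling replicate 1. The log2 fold change was -1.28 (SE 0.37, edgeR adjusted p = 0.0223), from a mean of 102.5 ± 22.7 CPM (SD, n = 7) to 44.6 ± 29.2 CPM (SD, n = 8). As a share of the summed counts of the 7 factors, dnaaf4 took 19.6% to 26.0% in siblings and 9.82% to 17.5% in mutants. All 8 mutant libraries were thus below every sibling in this share, which depends neither on total counts nor on scaling. It does depend on the levels of the other factors, whose shares are given below. No such share was computed for genes outside the 7 factors.

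dnaaf2 (NM_001033100.1), known as kintoun from a medaka mutant, encodes a PIH domain protein of pre-assembly. It had 10.6 to 38.5 CPM in siblings and 6.35 to 40.6 CPM in mutants, with medians of 21.0 and 17.6 CPM. Mutant replicates 5, 6 and 8, at 6.35 to 9.18 CPM, were below every sibling and replicate 1 was above every sibling. The log2 fold change was -0.27 (SE 0.42, edgeR adjusted p = 0.681). Its 95% interval ran from -1.10 to 0.56. Counts were low, from 16 to 77 per library.

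The second set are leucine-rich repeat proteins of arm assembly. dnaaf1 (NM_001319131.1), once lrrc50 and known from the zebrafish kidney cyst mutant swt, had 29.2 to 97.6 CPM in siblings and 18.6 to 60.8 CPM in mutants. The medians were 73.1 and 31.6 CPM. Mutant replicates 4, 5, 6 and 8, at 18.6 to 23.3 CPM, were below every sibling, while the other mutants, at 39.9 to 60.8 CPM, lay within the sibling range. Among siblings replicate 4 was lowest and replicate 3 highest. The log2 fold change was -1.06 (SE 0.32, edgeR adjusted p = 0.0297), from a mean of 69.1 ± 27.0 CPM (SD, n = 7) to 34.3 ± 16.1 CPM (SD, n = 8). The call was lost, at an adjusted p of 0.0507 to 0.0527 in edgeR, when mutant replicate 4, 5, 6 or 8 was left out.

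dnaaf11 (NM_001002311.1), once lrrc6, encodes a partner of ZMYND10. Its sibling levels ran from 45.0 to 92.2 CPM, with a median of 80.8 CPM. The mutant libraries lay on both sides of that range and none lay within it. Replicates 4, 5, 6 and 8 had 24.5, 34.0, 34.6 and 35.1 CPM, below every sibling. Replicates 1, 2, 3 and 7 had 127, 99.8, 96.6 and 109.8 CPM, above every sibling. How many of all accessions show such a split was not computed. Over all of them the change came to -0.09 on the log2 scale (SE 0.35, edgeR adjusted p = 0.877). A second accession of the gene, XM_005171374.4, had 13.7 to 38.0 CPM in siblings and 6.93 to 42.1 CPM in mutants. It did not repeat the split: replicates 4, 5 and 6 were below every sibling, replicate 1 above, and 4 mutants within the sibling range. It was not called (log2 fold change -0.23, SE 0.38, edgeR adjusted p = 0.705). Within the summed counts of the 7 factors, dnaaf11 took 10.5% to 17.2% in siblings and 16.4% to 26.7% in mutants, with 7 of 8 mutants above every sibling. Such a share also rises where other factors fall.

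zmynd10 (NM_200397.1) encodes a MYND zinc finger protein that hands dynein subunits to chaperones. Sibling replicate 2 stood apart at 28.0 CPM, and the other siblings had 14.7 to 18.0 CPM. Mutants had 2.47 to 17.2 CPM, with replicates 4, 6 and 8 at 2.47 to 3.63 CPM and replicate 5 at 10.8 CPM. Of the mutants 5 of 8 were below every sibling and 3 of 8 within the sibling range. Over all accessions tested, 4 or more mutant libraries were below every sibling in 19.3%. The log2 fold change was -0.93 (SE 0.38, edgeR adjusted p = 0.0983). These are small numbers, with 27 to 54 counts per sibling library and 6 to 40 per mutant library.

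Among themselves the 7 factors differed in how much they varied. Within siblings the coefficient of variation was lowest for spag1a, at 16.9%, and highest for dnaaf2, at 46.4%. In mutants it ran from 36.2% for spag1a to 65.8% for dnaaf2. Among the shares of the summed counts, those of spag1b and dnaaf4 were smaller in 7 and 8 of 8 mutant libraries than in any sibling. That of dnaaf11 was larger in 7 of 8, and those of spag1a and dnaaf2 in 4 of 8 each. The share of zmynd10 was smaller in 3 and larger in 1. The shares are parts of 1 sum, so smaller shares of some factors go with larger shares of others. The shares of dnaaf1 overlapped in full, at 8.37% to 14.4% in mutants within 7.20% to 21.9% in siblings. Levels were not ranked between genes, since transcript lengths were not used.

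Erythrocyte and endothelial markers were highest in mutant replicates 4, 5, 6 and 8 and in sibling replicate 1. The erythrocyte list (14 of 18 genes with a row, gata1a at 0 in every sibling) summed to 156 to 2421 CPM in siblings and 431 to 4879 CPM in mutants. The endothelial list (20 of 24 genes) summed to 99.2 to 1656 CPM and 194 to 2496 CPM. With their joint share as a term, edgeR called none of the 7 factors, beside 2.08% of all accessions called lower, and 1 of them, spag1b, was lower at an unadjusted p under 0.05, beside 8.84% of all accessions. spag1b was then at -0.86 (SE 0.28, edgeR adjusted p = 0.0664), dnaaf4 at -0.56 (SE 0.27) and dnaaf1 at -0.33 (SE 0.27). With the number of detected accessions as a term instead, spag1b was called (-0.85, SE 0.24, edgeR adjusted p = 0.0358), beside 3.04% of all accessions called lower. Under the erythrocyte and endothelial term the estimates of dnaaf11, dnaaf2 and spag1a turned to 0.50, 0.44 and 0.14. Sibling replicate 1, with 4076 CPM of erythrocyte and endothelial counts, had 368 CPM in the 7 factors together. That was the lowest of the siblings, which ran up to 572 CPM. In mutant replicates 4, 5, 6 and 8, with 3100 to 7375 CPM of those counts, the 7 factors came to 150.2 to 182 CPM. These libraries also differed in pronephric markers, at 4055 CPM in that sibling and 2292 to 2861 CPM in those mutants.

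Epidermal markers (19 of 21 genes) summed to 946 to 3358 CPM in siblings and 2644 to 13524 CPM in mutants, with 5 of 8 mutants above every sibling. A list for floor plate and spinal cord ciliated cells (8 of 10 genes) summed to 2.01 to 13.2 CPM in siblings and 19.0 to 159 CPM in mutants, higher in 8 of 8. Of single accessions tested, 1.57% had all mutants above every sibling. Most of it in mutants was shha, which encodes a Hedgehog ligand of the floor plate, at means of 2.89 and 75.8 CPM. Neuron markers (14 of 16 genes, elavl4 and tubb5 at 0 in every sibling) gave 12.7 to 103 CPM in siblings and 34.1 to 99.1 CPM in mutants. Skeletal muscle markers (16 of 20 genes) gave 832 to 16946 CPM and 572 to 5024 CPM, with myhz2, myhz1.1 and desma at 0 in every mutant. Multiciliated cell markers (8 of 14 genes) gave 436 to 550 CPM and 262 to 529 CPM, mostly foxj1a, while gmnc and foxj1b averaged under 1 CPM in both groups and myb and etv5a were at 0 in every sibling. These zeros were not read as absence from a genotype, since an accession listed in 1 table was given 0 in the other. Across all libraries myhz2 shared its counts with 80 other accessions, myb and etv5a with 197 and tubb5 with 295. The part of these other tissues in the results was not tested.

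The level of the factors was also set against that of other duct genes. The summed counts of the 7 factors came to 8.63% to 10.9% of those of the pronephric markers in siblings and to 6.16% to 8.25% in mutants. All 8 mutant libraries were below every sibling in that ratio, replicates 1, 2, 3 and 7 included. The factor sum itself was below every sibling in only 4 of 8 mutants, with 368 to 572 CPM in siblings. In replicates 1, 2, 3 and 7 it was 383 to 434 CPM, within that range. Their marker sums were 5180 to 6421 CPM, against 4055 to 6058 CPM in siblings. Such a ratio was not computed for other gene lists, so it is not shown to be particular to the assembly factors. The sums of the outer arm, inner arm and outer arm docking lists described below were themselves below every sibling in 6, 7 and 5 of 8 mutants. With the mean log2 level of the pronephric markers as a term in edgeR, the same 3 factors were called, beside 6.73% of all accessions called lower. There spag1b was at -1.12 (SE 0.17, adjusted p = 0.000449), dnaaf4 at -1.10 (SE 0.20, adjusted p = 0.00143) and dnaaf1 at -0.89 (SE 0.27, adjusted p = 0.0330). The pronephric list itself is not neutral, since its phosphate transporter gene slc20a1a was lower in mutants (log2 fold change -1.41, SE 0.41, edgeR adjusted p = 0.0242; named after its value was seen).

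**Figure D3:**
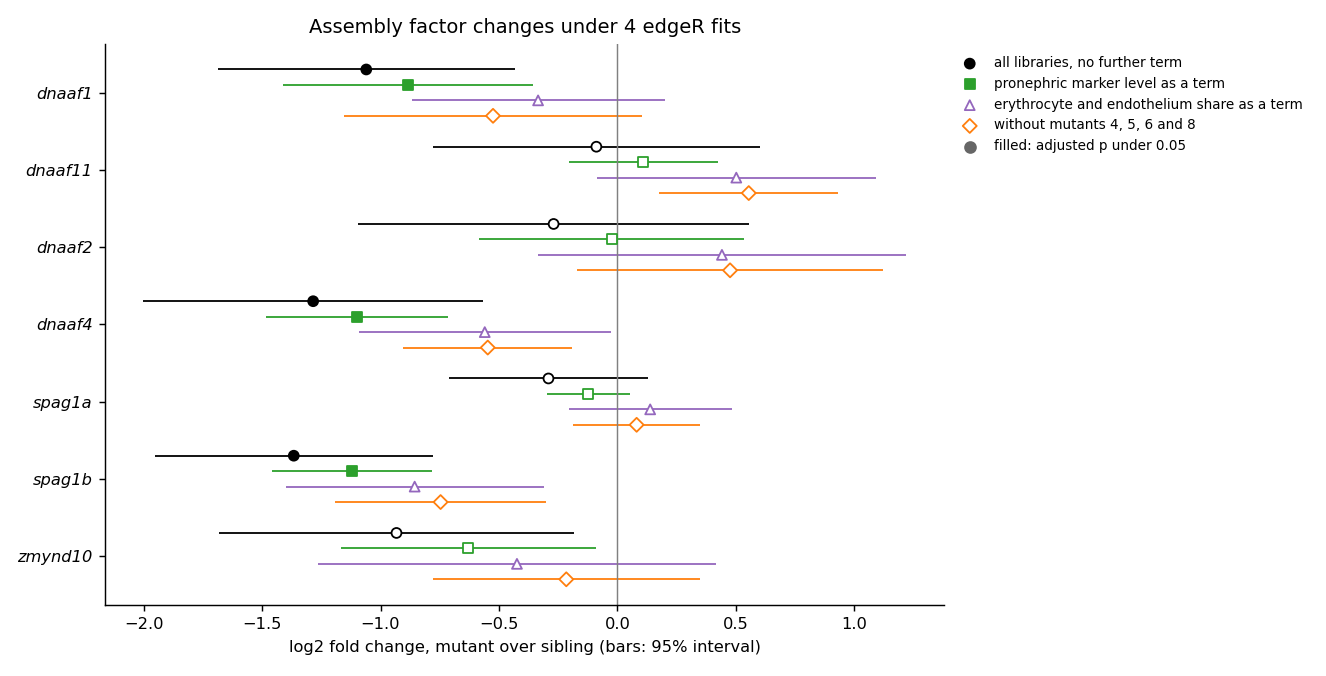
Log2 fold changes of the 7 assembly factors, mutant over sibling, with 95% intervals, under 4 edgeR fits (all libraries, pronephric markers as a term, erythrocyte and endothelial share as a term, and without 4 mutants); filled symbols passed an adjusted p of 0.05. The estimates of spag1b, dnaaf4, dnaaf1 and zmynd10 stay below 0 in all 4 fits shown, while those of dnaaf11, dnaaf2 and spag1a lie on both sides of 0. spag1b, dnaaf4 and dnaaf1 are called in 2 of the fits and zmynd10 in none. Intervals can still cross 0, as for dnaaf1 with the erythrocyte and endothelial share as a term. The intervals are approximate and can be narrower than edgeR's test implies. With that term the interval of dnaaf4 leaves out 0, though its unadjusted p was not under 0.05.

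The clients of the factors, the dynein arms, were examined next from lists of subunits. Of 17 outer arm symbols listed 10 had a row and 9 were tested. Of these, 6 were called lower in mutants, beside 5.53% of all accessions tested, and the median log2 fold change was -0.84. The heavy chain gene dnah5 went from 23.3 ± 6.45 to 7.41 ± 2.69 CPM (log2 fold change -1.77, SE 0.28, edgeR adjusted p = 0.000477). The light chain gene dnal4b changed by -0.68 (SE 0.17) and the intermediate chain gene dnai1.2 by -1.64 (SE 0.46). Of 13 inner arm symbols listed 9 had a row and 8 were tested, with 4 called lower, beside the same 5.53%, and a median of -0.76. They included the intermediate chain genes dnai4, at -1.73 (SE 0.31, adjusted p = 0.00127), and dnai7, at -1.17 (SE 0.28), and the heavy chain gene dnah12, at -0.80 (SE 0.23).

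For dnah5 and dnai4, and for spag1b by less than 1 count, 8 of 8 mutant libraries lay below every sibling, beside 0.736% of all accessions tested. Of 9 symbols listed for outer arm docking 5 had a row and were tested. The lists can hold more than 1 name of a gene, so the listed numbers count symbols. Of the docking genes 3 were called lower, beside 5.53% of all accessions tested. They were odad4 at -1.05 (SE 0.33), odad1 at -0.94 (SE 0.31) and the calaxin gene clxn at -0.79 (SE 0.27). These 3 calls were near the threshold, at adjusted p-values of 0.0365 to 0.0479 in edgeR, and each was lost in 11 to 15 of the 27 alternatives run. No gene of these 3 lists was called higher, and each had an estimate below 0, so none was higher at an unadjusted p. Over all accessions tested, 13.6% were called higher and 46.9% had an estimate below 0. Without mutant replicates 4, 5, 6 and 8, edgeR called 1 outer arm gene (dnah5), 1 inner arm gene (dnai4) and 0 docking genes. In that fit 1.03% of all accessions were called lower. Set against the outer arm subunits, the summed counts of the assembly factors came to 60.3% to 87.1% in siblings, with a median of 73.4%, and to 63.7% to 109% in mutants, with a median of 73.5%. Against the inner arm subunits the medians were 93.9% and 93.8%. The ratios to both kinds of arm overlapped between groups, with 1 mutant above every sibling in each and none below. Against the docking genes the medians were 73.9% in siblings and 79.3% in mutants, with 4 of 8 mutants above the highest sibling (80.9%).

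**Figure D4:**
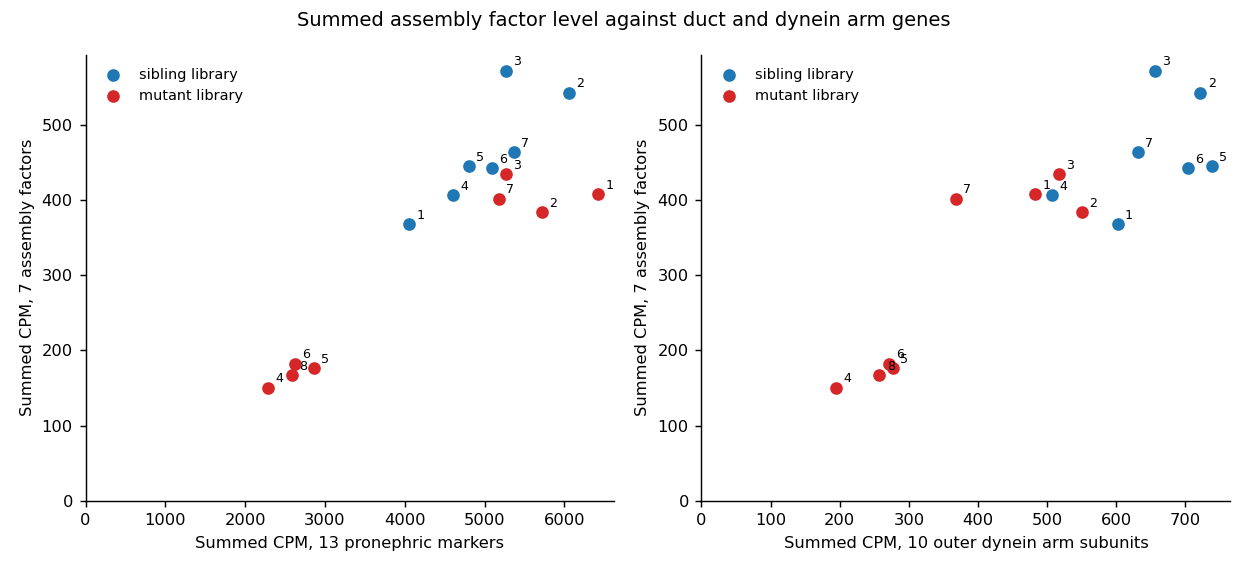
Summed CPM (without TMM scaling) of the 7 assembly factors in each library against the summed CPM of pronephric markers (left) and of outer dynein arm subunits (right), numbers giving the replicate. Mutant replicates 4, 5, 6 and 8 lie lowest on all 3 sums, and the other 4 mutants lie below the siblings relative to the pronephric markers but not relative to the dynein arm genes.

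Cytosolic chaperones serve many clients beside dynein. The list used here joins HSP90 and its co-chaperones, the R2TP complex, HSP70 with its J-domain partners and the subunits of the CCT chaperonin. It shares dnaaf10 and pih1d1 with the list of other assembly factors. Of its 27 genes 26 had a row and 24 were tested, with a median log2 fold change of 0.01. Only rpap3 was called, at -0.50 (SE 0.13, edgeR adjusted p = 0.0158), beside 5.53% of all accessions called lower and 13.6% called higher. It encodes the TPR subunit that ties R2TP to HSP90, and fell from 99.6 ± 14.8 to 70.9 ± 13.2 CPM. The 2 ATPase genes of R2TP, ruvbl1 and ruvbl2, were at -0.19 (SE 0.15) and -0.29 (SE 0.17) and did not pass. The cytosolic HSP90 gene hsp90ab1 was at 0.14 (SE 0.11) and did not pass either. The summed counts of this list were 6561 to 8334 CPM in siblings and 6776 to 9056 CPM in mutants, with 0 mutants below every sibling.

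Other factors of arm assembly and delivery were also mostly not called. Of 12 listed, 7 had a row and were tested, with a median of -0.40. Of these 1, the PIH domain gene pih1d2, was called lower, beside 5.53% of all accessions tested. It went from 8.65 ± 2.02 to 3.72 ± 3.36 CPM (log2 fold change -1.48, SE 0.46, edgeR adjusted p = 0.0316). dnaaf6, another PIH domain gene, was at -0.64 (SE 0.34, adjusted p = 0.195) and cfap298, known from the zebrafish kurly mutant, at -0.40 (SE 0.24, adjusted p = 0.251). Of the 7 estimates 6 were below 0, and the highest was 1.00. The summed counts of this list were 319 to 480 CPM in siblings and 189 to 519 CPM in mutants. Of the mutants 5 of 8 were below every sibling in that sum and 1 was above. With the erythrocyte and endothelial share as a term, the edgeR calls of both pih1d2 and rpap3 were lost, as they were without mutant replicates 4, 5, 6 and 8.

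**Figure D5:**
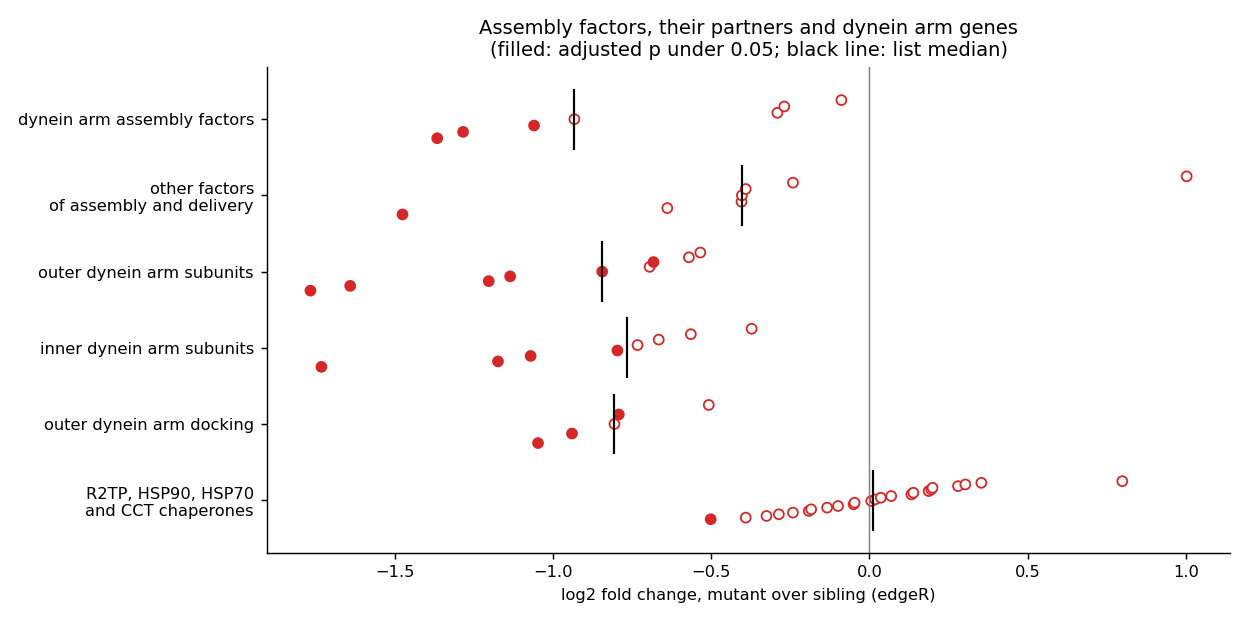
Log2 fold changes, mutant over sibling, of the tested genes of 6 lists, filled where edgeR's adjusted p was under 0.05, with the list median as a black line. The 7 assembly factors and all tested dynein arm and docking genes lie below 0. Of the 7 other factors of assembly and delivery 6 lie below 0, and the highest is at 1.00. The chaperone genes (R2TP, HSP90, HSP70 and CCT) lie around 0 with a median of 0.01.

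foxj1a, which encodes the main transcriptional regulator of motile cilia in this tissue, had 241 to 442 CPM in siblings and 112 to 495 CPM in mutants (log2 fold change -0.41, SE 0.29, edgeR adjusted p = 0.339). The summed counts of the 7 factors came to 109.7% to 141% of those of foxj1a in siblings and to 96.1% to 148% in mutants, with 4 of 8 mutants below every sibling and 1 above. The library profiles most like the mean profile of the 7 factors were sought among 10901 accessions with a mean of at least 10 CPM. Likeness was the root mean square difference in log2 CPM over the 15 libraries, each gene centred on its sibling mean. The nearest were cfap53 (0.186), a gene of ciliary motility listed here with arm docking, then armc3 (0.195), XM_021473735.1 (0.199), which matched no symbol, cyb5d1 (0.202), and dnali1 (0.206), an inner arm light intermediate chain gene. The median over all candidates was 0.994. The 7 factors themselves lay 0.409 (zmynd10) to 0.566 (dnaaf2) from their own mean. All these profiles share the libraries and their low values in mutant replicates 4, 5, 6 and 8, and none of the 5 nearest genes was called (log2 fold changes from -0.84 to -0.56).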

How the data were processed

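Pronephric duct libraries of 7 siblings and 8 actl6a mutants were compared. The files deposited by the authors hold whole-number counts for RefSeq accessions, in 2 tables split by sequencing index, whose columns were assigned by the sample barcodes in the labels. The submitters' processing notes name GRCz11, cutadapt, FastQC, STAR, featureCounts and edgeR. Whether counting used strand or collapsed duplicates is not given in the sources used here. An accession listed in 1 table was given 0 in the other.

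Symbols came from RefSeq's GRCz12tu gene table, version numbers ignored: 20439 of 33298 accessions matched, with 85.8% of counts. Replicates were compared over accessions with at least 20 counts in 49 pairs within groups, and chi-square per degree of freedom was 8.39 to 39.3, so none was a duplicate.

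Tests used edgeR 4.0.16 in R 4.3.3 (TMM, filterByExpr, robust glmQLFit with bias adjustment, glmQLFTest), with Benjamini-Hochberg adjustment over 12914 accessions and a threshold of 0.05. SE is the size of the log2 fold change over the square root of F, and 95% intervals are 1.96 SE to each side. They are approximate and can be narrower than the F test implies. An interval that leaves out 0 therefore need not go with an unadjusted p under 0.05. Log2 CPM used a prior count of 2, and the paralog ratio an offset of 0.5 counts. Summed shares and ratios use unscaled counts. The script was tested on simulated data. Alternatives used DESeq2 1.42.0 and limma 3.58.1, and other steps Python 3.11.15, scipy 1.17.1, pandas 2.3.3 and matplotlib 3.10.9.

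The members, lists and tests were chosen with earlier results of these data known. The text names all members, actl6a, foxj1a and atp1a1a.4, up to 3 called genes per list with the smallest p-value, and the 5 nearest profiles. Other genes named were chosen after their values were seen.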

Additional observations from a re-analysis of the deposited data

Results flagged for a closer look

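Of 82 groups of libraries (each named gene, each list sum and the paralog ratio, in each genotype), 5 had a library standing apart at the 95% critical value of Dixon's gap test. About 4.1 such cases are due by chance. For zmynd10, sibling replicate 2 was at 28.0 CPM against 14.7 to 18.0 CPM in the other siblings. Without it the log2 fold change was -0.86 (edgeR adjusted p = 0.151).

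Sibling replicate 1 was highest in 3 list sums. Erythrocyte markers summed to 2421 CPM there (others at most 507 CPM), endothelial markers to 1656 CPM (others at most 173 CPM) and neuron markers to 103 CPM (others at most 41.0 CPM). Mutant replicate 6 had 13524 CPM of epidermal markers against 2644 to 6873 CPM in the other mutants.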

How the results depend on the processing

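The 3 calls, of spag1b, dnaaf4 and dnaaf1, also came with DESeq2, RLE size factors, estimated dispersions, no filter on low counts, the pronephric term and summed accessions. Each of these 3 genes has 1 row, so summing left its own counts unchanged. The count was 1 (spag1b) with detected accessions as a term, 0 with the erythrocyte and endothelial (vessel) share as a term and 6 with voom quality weights, which added zmynd10 (-1.57), dnaaf11 (-0.77) and spag1a (-0.64). Chosen after seeing the data were the estimated dispersions and the fits without mutant replicates 4, 5, 6 and 8 (0 called) and also without sibling replicate 1 (1 called, dnaaf4, at -0.64). Leaving out each library gave 2 to 3 calls. Over all accessions 2474 were called, 1622 to 3390 with 1 library left out (1622 without mutant replicate 8), 1631 with estimated dispersions, 3962 without a filter, 1131 with the vessel share, 1333 with detected accessions, 5575 with voom weights (55.4% of them higher, against 71.1%), and 512 and 590 without the libraries named above. With the replicate block 1 factor was called (spag1b, -1.28) and 1351 accessions. The numbers do not pair the libraries: same-numbered libraries had correlations of deviations from -0.54 to 0.26, and none correlated best with its own number.

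Directions turned for genes that edgeR did not call with all libraries and no further term, among them dnaaf11 and spag1a, which voom weights called lower. With the vessel share and detected accessions as terms, and without the 4 mutants or these and sibling replicate 1, in that order, the log2 fold changes were 0.50, 0.52, 0.55 and 0.50 for dnaaf11, 0.44, 0.36, 0.48 and 0.46 for dnaaf2, 0.14, 0.10, 0.081 and 0.020 for spag1a, 0.18, 0.11, 0.094 and 0.014 for foxj1a, and 0.36, 0.32, 0.27 and 0.20 for atp1a1a.4. dnaaf11 was also at 0.11 with the pronephric term and at -0.30 to 0.018 with 1 library left out (0.018 without mutant replicate 4), and XM_021473735.1 at 0.036 with the vessel share. The cause was not tested. The paralog ratio kept its direction and call in all 18 alternatives run (exact permutation p from 0.000583 to 0.00133 with 1 library left out). Among these, summed accessions could not change it, since each paralog has 1 row. Low counts limit zmynd10, dnaaf2, pih1d2 and dnai1.2, and index and genotype stay the same split.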
